A study of Mus musculus with 6 samples.

Results

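The plasminogen activation system was examined in mouse colon tumors as 9 genes chosen by symbol: the activators Plat and Plau, the zymogen Plg, the cell surface genes Plaur, Anxa2 and S100a10, and the serpins Serpine2, Serpinb2 and Serpinf2. Of these 9 genes, 8 had a probe set on the Affymetrix Mouse Gene 1.0 ST array that carried their symbol alone, 1 set each, among 35556 sets in all. Serpine2 was paired with no probe set and was not analysed here. Tumors were compared between mice of genotype CDX2P-G19Cre;Apcflox/flox;Tgfbr2flox/flox (double knockout or DKO tumors, n = 3) and of genotype CDX2P-G19Cre;Apcflox/flox (Apc KO tumors, n = 3). All mice were C57BL/6J and 3 weeks old, and each tumor was on its own array. Both groups carry the same Cre transgene, which acts by chance in some cells of the colon epithelium from a CDX2 promoter, so Apc was deleted in both, Tgfbr2 was deleted in DKO tumors alone, and cells of the stroma were not targeted. Tumor tissue was cut from frozen sections by laser before RNA extraction. Normal colon was not analysed here.

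Plasmin is a broad serine protease that dissolves fibrin and cleaves matrix proteins, and it is made from plasminogen, a zymogen secreted by the liver. Tissue-type activator (Plat) works mainly on fibrin, while urokinase (Plau) works at the cell surface, bound to its receptor (Plaur). Annexin A2 and S100A10 form a surface complex that brings plasminogen and Plat together, and serpins hold the system back by trapping the activators or plasmin itself. In colon tumors, urokinase and its receptor are known from cells at the invasive edge, from macrophages and neutrophils as well as from tumor cells.

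Signals are the deposited log2 values after RMA, so a difference of 1 is a doubling. The median over all probe sets was between 7.68 and 7.80 on the 6 arrays. DKO tumor 2 stood apart, with correlations of 0.956 to 0.968 with the other tumors over all probe sets, against 0.980 to 0.988 among the other 5. Tgfbr2 itself was lower in every DKO tumor (10.35 to 10.98) than in every Apc KO tumor (11.09 to 11.37), although where its probes lie relative to the floxed exons is not known here. Markers of intestinal epithelium, among them Epcam, Cdx2 and Vil1, averaged between 11.62 and 12.17 in each tumor. Single markers were not all even, and 2 of the 10 had their lowest signal in DKO tumor 2. Of these, Cdx2 was at 8.24 in DKO tumor 2 and between 10.08 and 11.18 in the other 5 tumors. The limma test took in 19506 probe sets, those named by a gene symbol whose mean reached the 20th percentile of all sets (5.88). Of the 8 measured members 7 were tested, and Serpinb2 lay below this level.

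Plat, the tissue-type plasminogen activator, had a lower signal in each DKO tumor than in any Apc KO tumor, a difference that did not pass adjustment over all tested sets. It was at 10.49, 9.67 and 10.94 on the log2 scale in DKO tumors 1 to 3 and at 11.95, 11.44 and 11.62 in Apc KO tumors 1 to 3 (probe set 10570855). The groups did not overlap, with DKO tumor 2 the lowest of the 6 and a gap of 0.49 between DKO tumor 3 and Apc KO tumor 2. The means were 10.37 ± 0.65 (SD, n = 3) and 11.67 ± 0.26 (SD, n = 3), which is 2.47-fold lower (95% confidence interval 1.40 to 4.34). The log2 fold change was −1.30 (standard error, SE, 0.34, limma unadjusted p = 0.00769 and adjusted p = 0.821), and the two-sided exact permutation test gave p = 0.1, the smallest that 3 tumors against 3 allow. Of the 19506 tested sets, ordered from the lowest log2 fold change upward, Plat was at rank 109. Plat is on the study's own list of genes that differed between these tumors, so its direction is not independent evidence. Without DKO tumor 2 the log2 fold change was −0.95, or 1.94-fold lower, and each of the other tumors left out in turn gave between −1.59 and −1.16.

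**Figure D1:**
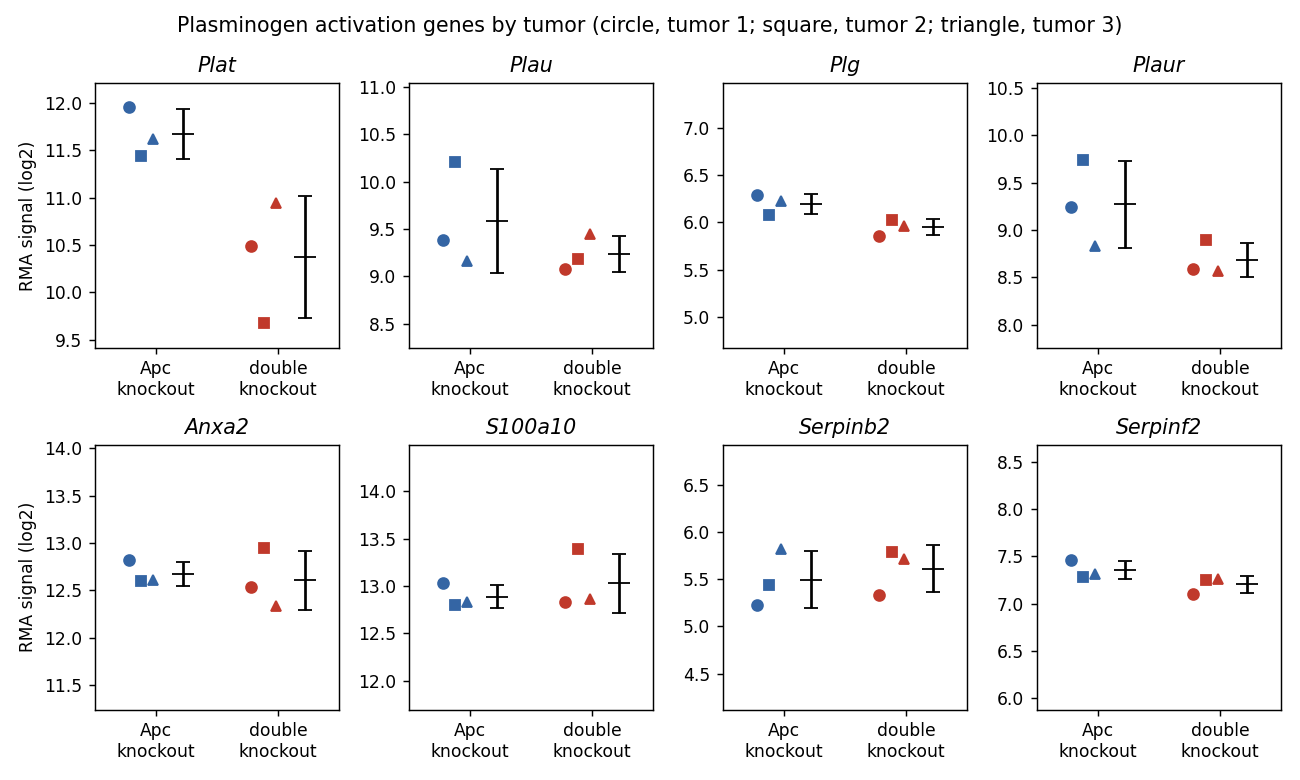
Log2 RMA signal (vertical axis, the same span in each panel) of the 8 measured genes. Each point is 1 tumor, blue for Apc KO and red for DKO, and black bars give the group mean and SD (n = 3). The points of the groups stand apart for Plat, with 9.67 to 10.94 in DKO tumors against 11.44 to 11.95 in Apc KO tumors, and lie close together or overlap in the other panels.

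Plau, the urokinase gene, did not differ beyond the spread between tumors. It was at 9.08, 9.19 and 9.45 in DKO tumors 1 to 3 and at 9.39, 10.21 and 9.17 in Apc KO tumors 1 to 3 (probe set 10413047). Apc KO tumor 2 was the highest by far, and the other 5 tumors overlapped. The log2 fold change was −0.35 (SE 0.28, limma adjusted p = 0.832), with an interval from 2.05-fold lower to 1.27-fold higher. Without Apc KO tumor 2 it was −0.04 (SE 0.16).

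Plaur, the urokinase receptor, had the largest difference after Plat, and the groups overlapped. Its signal was 8.59, 8.90 and 8.57 in DKO tumors 1 to 3 and 9.24, 9.74 and 8.83 in Apc KO tumors 1 to 3 (probe set 10550906). Apc KO tumors 1 and 2 lay above the other 4, and Apc KO tumor 3 lay just below DKO tumor 2. The means were 8.68 ± 0.18 (SD, n = 3) and 9.27 ± 0.46 (SD, n = 3), and the log2 fold change was −0.59 (SE 0.24, limma unadjusted p = 0.0520 and adjusted p = 0.821; two-sided exact permutation test, p = 0.2). As with Plau, the highest tumor was Apc KO tumor 2, and without it the log2 fold change of Plaur was −0.35. Without Apc KO tumor 3 it was −0.81.

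Anxa2 and S100a10, which encode the partners of the plasminogen-binding complex, had high signals that differed little between groups. Anxa2 was at 12.53, 12.94 and 12.33 in DKO tumors 1 to 3 and at 12.82, 12.59 and 12.60 in Apc KO tumors 1 to 3 (probe set 10586744). S100a10 was at 12.84, 13.39 and 12.86 in DKO tumors 1 to 3 and at 13.03, 12.80 and 12.83 in Apc KO tumors 1 to 3 (probe set 10493995). DKO tumor 2 was the highest of the 6 for both, by 0.51 for Anxa2 and 0.54 for S100a10 over the mean of the other DKO tumors, and the groups overlapped. The log2 fold change was −0.07 (SE 0.18, limma adjusted p = 0.939) for Anxa2 and 0.14 (SE 0.18, limma adjusted p = 0.879) for S100a10. The intervals allow a ratio of DKO to Apc KO tumors between 0.706 and 1.29 for Anxa2 and between 0.817 and 1.49 for S100a10. Without DKO tumor 2 the log2 fold change of S100a10 was −0.040, and that of Anxa2 ran from −0.24 to 0.067 with 1 tumor left out.

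Promoter sequence is shown for Plaur and Anxa2, a receptor whose mean was lower and a receptor whose mean was near the same in both groups, because both windows hold an AP-1 site, the element through which growth factor and stress signals are known to act on the urokinase receptor gene. RefSeq promoter windows of build GRCm38.p6 matched 5 of the 9 genes (Plaur, Anxa2, Serpine2, Serpinb2 and Serpinf2). The 250 bases before a RefSeq start are printed 5′ to 3′ on the plus strand, chr7:24462233-24462482 for Plaur and chr9:69453433-69453682 for Anxa2, with the AP-1 letters in capitals.
Plaur: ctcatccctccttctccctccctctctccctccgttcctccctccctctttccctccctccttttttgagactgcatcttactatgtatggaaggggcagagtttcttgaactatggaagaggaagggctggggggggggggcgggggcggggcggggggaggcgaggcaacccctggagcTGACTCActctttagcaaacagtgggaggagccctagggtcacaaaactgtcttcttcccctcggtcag
Anxa2: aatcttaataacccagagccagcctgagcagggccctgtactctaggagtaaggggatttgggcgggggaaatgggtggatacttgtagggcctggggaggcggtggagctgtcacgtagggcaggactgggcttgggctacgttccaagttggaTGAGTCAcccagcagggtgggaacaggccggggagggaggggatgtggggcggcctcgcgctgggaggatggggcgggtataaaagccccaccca
The letters searched were TGAGTCA on both strands, which reads TGACTCA on the other. The match begins 69 bases before the start in Plaur and 95 bases before it in Anxa2, and 4.46% of 32851 RefSeq windows of the same length hold the letters. The GC box GGGCGG, searched on both strands too, occurs 3 times in each of the pair and in 32.7% of all windows, and its matches do not overlap the AP-1 letters. The windows of Serpine2, Serpinb2 and Serpinf2 hold no TGAGTCA on either strand. These matches describe the letters and were not tested for binding.

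Plg and Serpinf2, genes of the liver that encode plasminogen and the main plasmin inhibitor of plasma (α2-antiplasmin), had low signals with small differences. Plg was at 5.86, 6.02 and 5.96 in DKO tumors 1 to 3 and at 6.28, 6.08 and 6.23 in Apc KO tumors 1 to 3 (probe set 10441753), a rank above 20.1% to 26.8% of its array. Serpinf2 was at 7.10, 7.25 and 7.26 in DKO tumors 1 to 3 and at 7.46, 7.28 and 7.32 in Apc KO tumors 1 to 3 (probe set 10388440), above 39.4% to 46.0% of its array. The groups did not overlap for either gene, but by gaps of only 0.053 for Plg and 0.020 for Serpinf2. The log2 fold change was −0.25 for Plg (SE 0.11, limma unadjusted p = 0.0580 and adjusted p = 0.821) and −0.15 for Serpinf2 (SE 0.11, limma adjusted p = 0.824). In the methods' unpaired test with equal variances, run on the same values, Plg was below an unadjusted 0.05. A list of 10 hepatocyte markers, of which 9 had a probe set, averaged between 6.75 and 7.20 in each tumor. No detection call was made, so the share of background in these low signals is not known.

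Serpinb2, an inhibitor of urokinase made by macrophages and stressed epithelium, was not tested because of its low signal. It was at 5.33, 5.79 and 5.71 in DKO tumors 1 to 3 and at 5.22, 5.44 and 5.82 in Apc KO tumors 1 to 3 (probe set 10349157), above 13.4% to 19.0% of its array. The lowest and the highest of the 6 were both Apc KO tumors, and the difference of means was 0.12 on the log2 scale.

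**Figure D2:**
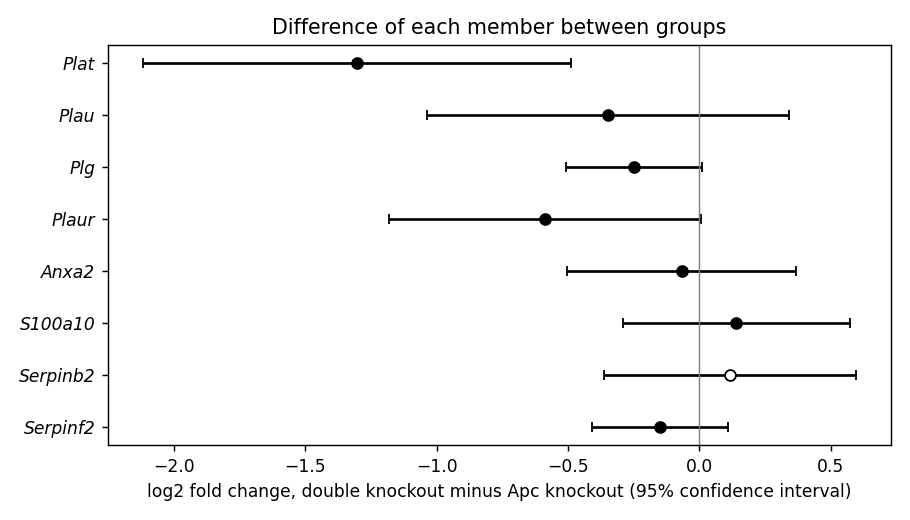
Log2 fold change of each measured member, DKO minus Apc KO (horizontal axis), as points with 95% confidence intervals from limma. The open point, Serpinb2, lay below the filter on signal. The interval leaves out 0 for Plat (−2.12 to −0.49) and includes it for the other 7 genes.

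Over the 7 tested members, 1 (Plat) was lower at an unadjusted p under 0.05 and 0 were higher, where 3.82% of all tested sets were lower and 1.78% higher in limma. After Benjamini-Hochberg adjustment 0 members and 0 of all tested sets passed 0.05 in limma and in the methods' test, in which 2 members, Plat and Plg, were lower without adjustment. Groups without overlap, DKO below, were found for 3 of the 7 (Plat, Plg and Serpinf2) against 6.94% of all tested sets, and 0 lay above, against 5.25%. A lower mean of any size was found for 6 of the 7 and for 47.7% of all tested sets. The median log2 fold change of the 7 was −0.25, beside 0.01 over all tested sets. These counts include Plat, which is on the study's own list from these tumors. With Plat set aside, 0 of the other 6 were lower at an unadjusted p under 0.05 in limma. The groups did not overlap for 2 of these 6, Plg and Serpinf2, by gaps of only 0.053 and 0.020. A lower mean was found for 5 of the 6, and their median was −0.20.

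Cell type markers were read beside Plat and Plaur, since RNA of whole dissected tissue cannot tell fewer cells of a type from less RNA per cell. Markers of crypt cells and Wnt signaling (Lgr5, Axin2, Notum and others) averaged 10.97, 8.74 and 11.09 in DKO tumors 1 to 3 and between 11.10 and 11.24 in Apc KO tumors, with 9 of 10 lower. The exception was Ascl2, with a log2 fold change of 0.61. Plat and 9 of these markers, all but Ascl2, had their lowest signal in DKO tumor 2. Without that tumor 7 of the 10 markers were still lower and 3 higher (median log2 fold change −0.30), and Plat was at −0.95. The difference of the marker means was −0.90 with all tumors and −0.14 without DKO tumor 2. The markers then went both ways, among them Lgr5 at −0.70, Sp5 at −0.65 and Ascl2 at 1.16. Endothelium, a known source of Plat, had marker means between 8.67 and 8.89 in DKO tumors and between 8.53 and 9.06 in Apc KO tumors, with 4 of 10 lower. Nerve and glia markers, another known source, averaged between 6.68 and 6.87 and between 6.70 and 6.96 over the 8 with a probe set. Of the 7 tested, 4 were lower and 3 higher. The lowest log2 fold change was that of Uchl1 (−0.67, and −0.87 to −0.55 with 1 tumor left out). At an unadjusted p under 0.05 in limma 1 was lower and 0 higher, beside 3.82% and 1.78% of all tested sets. The part of these cells in the Plat difference was not tested.

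Neutrophil markers (S100a8, S100a9, Csf3r and others) averaged 7.70, 9.0 and 8.42 in DKO tumors 1 to 3. In Apc KO tumors 1 to 3 they averaged 9.93, 9.84 and 9.03, and 10 of 10 were lower in DKO tumors. Csf3r (−0.016) and Il1b (−0.15) differed little, and without DKO tumor 2, 9 markers were lower and 1 was higher. At an unadjusted p under 0.05 in limma 4 of the 10 were lower, beside 3.82% of all tested sets. Plaur is known from neutrophils, and its highest tumors, Apc KO tumors 1 and 2, also had the highest means of these markers. Single markers did not all have this order: Apc KO tumors 1 and 2 were the highest pair for 6 of the 10 and not for the other 4, of which Csf3r was lowest in Apc KO tumor 1 (7.64), Ly6g was highest in DKO tumor 2 (13.15) and Mmp9 and Il1b were highest in DKO tumor 3 (11.52 and 10.72). In Apc KO tumor 3 and DKO tumor 2 both measures took neighboring values, 8.83 and 8.90 for Plaur and 9.03 and 9.0 for the marker means. DKO tumors 1 and 3 had like Plaur signals, 8.59 and 8.57, while their marker means were 7.70 and 8.42. Macrophage markers, the other known source, averaged between 9.10 and 9.78 in DKO tumors and between 9.20 and 9.69 in Apc KO tumors, with 6 of 10 lower. The part of these cells in the Plaur difference was not tested.

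**Figure D3:**
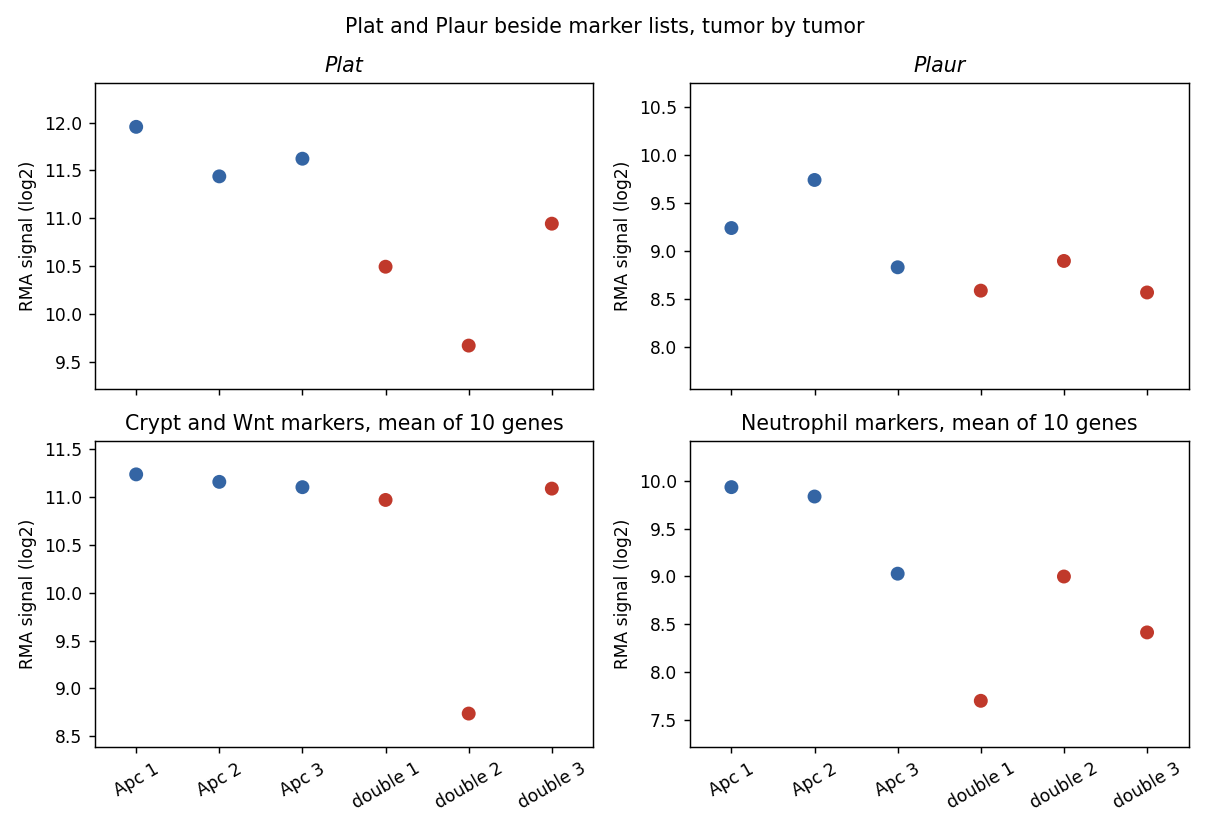
Log2 RMA signal (vertical axes) in each of the 6 tumors (horizontal axis), Apc KO in blue and DKO in red, for Plat above the mean of 10 crypt and Wnt markers and for Plaur above the mean of 10 neutrophil markers. DKO tumor 2 is lowest for Plat (9.67) and for the crypt marker mean (8.74), and Apc KO tumors 1 and 2 are highest for Plaur (9.24 and 9.74) and for the neutrophil marker mean (9.93 and 9.84).

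The list means of smooth muscle and colonocyte markers were higher in DKO tumor 2 than in the other DKO tumors. They were higher by 1.77 and 1.88 on the log2 scale, and the mean of fibroblast markers by 0.80. Not every marker went this way: 1 colonocyte and 1 fibroblast marker were lowest of all in DKO tumor 2. These were Slc9a3, at 9.52, 8.27 and 9.90 in DKO tumors 1 to 3, and Pdgfrb, at 10.05, 9.84 and 9.92. Anxa2 and S100a10 were highest in DKO tumor 2. Xist was high in 1 DKO and 2 Apc KO tumors and low in 2 DKO and 1 Apc KO tumors. The tumors with low Xist were DKO tumors 1 and 2 and Apc KO tumor 3. DKO tumor 2, the lowest for Plat, is thus in the low Xist class. Sex, read from this transcript alone, was thus not balanced between groups. Plat was lower in DKO tumors by a log2 difference of −0.75 among tumors with high Xist and −1.54 among those with low Xist. For Plaur these differences were −0.92 and −0.09. With 1 or 2 tumors in each class no test was made.

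Further genes of the pathway were taken from 3 lists, of other inhibitors, of surface and clearance proteins and of upstream proteases with plasmin substrates. Of 44 listed genes 39 had a probe set of their own and 37 were tested. Lower means were found for 20 and higher means for 17, with a median log2 fold change of −0.04. At an unadjusted p under 0.05, 4 were lower and 0 higher, beside 3.82% and 1.78% of all tested sets, and 0 passed after adjustment in limma. The groups did not overlap for 6 that were lower and 1 that was higher, beside 6.94% and 5.25% of all tested sets.

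Thbs1, a matrix glycoprotein that binds plasminogen and can activate latent TGF-β, was at 11.69, 11.39 and 11.83 in DKO tumors 1 to 3 and at 12.28, 12.26 and 12.64 in Apc KO tumors 1 to 3. Every DKO tumor was below every Apc KO tumor, with a log2 fold change of −0.76 (SE 0.17, limma adjusted p = 0.821). Hpn, which encodes hepsin, a membrane protease that can activate pro-urokinase, was at 8.15, 8.40 and 8.53 in DKO tumors 1 to 3 and at 8.79, 9.17 and 9.01 in Apc KO tumors 1 to 3. These groups did not overlap either, and the log2 fold change was −0.63 (SE 0.15). Fn1, or fibronectin, a matrix protein that plasmin cleaves, had a log2 fold change of −0.46 (SE 0.22) and overlapping groups. The other genes of the list with a probe set of their own, among them St14 (matriptase, an activator of pro-urokinase) at −0.14 and Ctsb (cathepsin B) at 0.02, differed by less than 0.31 in size. Fibrinogen genes, the classical substrate of the system and products of the liver, were at 0.12 for Fga and 0.02 for Fgb, and Fgg was below the filter.

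Among surface and clearance genes, Itgb3, the β3 chain of the vitronectin receptor, was at 9.23, 8.97 and 8.99 in DKO tumors 1 to 3 and at 9.64, 9.53 and 9.82 in Apc KO tumors 1 to 3. The groups did not overlap, and the log2 fold change was −0.60 (SE 0.13). Its partner chain Itgav had a log2 fold change of −0.26 (SE 0.13), with groups apart by a gap of only 0.020. Itgam, the αM integrin chain of myeloid cells that associates with the urokinase receptor, had a log2 fold change of −0.58 (SE 0.16) and no overlap either, and its partner chain Itgb2 had one of −0.13 (SE 0.17). Plgrkt, a plasminogen receptor of the plasma membrane, was higher by 0.79 (SE 0.34) with no overlap between groups. It was at 9.31, 10.24 and 8.94 in DKO tumors 1 to 3 and at 8.84, 8.45 and 8.85 in Apc KO tumors 1 to 3, so that DKO tumor 3 lay just above Apc KO tumor 3, and without DKO tumor 2 the log2 fold change was 0.41. Sorl1, a sorting receptor that takes up activators with their inhibitors, had a log2 fold change of 0.62 (SE 0.29), and Lrp1, the main clearance receptor, of −0.15 (SE 0.28), both with overlapping groups. Without DKO tumor 2 these were 0.32 for Sorl1 and −0.36 for Lrp1, and without DKO tumor 3 Lrp1 was at 0.14. Vldlr, another receptor of this list, had a log2 fold change of −0.54 (SE 0.30) with overlapping groups, and −0.21 without DKO tumor 2. Ahnak, a scaffold that binds the annexin A2 complex, was at 0.17 (SE 0.42), and at −0.32 without DKO tumor 2.

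Of the 9 tested genes on the list of other inhibitors, 5 had lower and 4 higher means, with a median of −0.01, and none of them passed an unadjusted 0.05 in limma. Serpini1, or neuroserpin, an inhibitor of Plat, had a log2 fold change of −0.72 (SE 0.39), set by Apc KO tumor 1 at 7.64, with the other 5 tumors between 5.85 and 6.50, and −0.27 without that tumor. Serpinc1, or antithrombin, was at 0.30 (SE 0.20) and Tfpi2, a Kunitz inhibitor of plasmin, at −0.24 (SE 0.22), and both were near 0 without DKO tumor 2 (0.088 and 0.010). Spint1 and Spint2, membrane inhibitors of matriptase and hepsin, differed by 0.14 (SE 0.13) and 0.02 (SE 0.11).

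**Figure D4:**
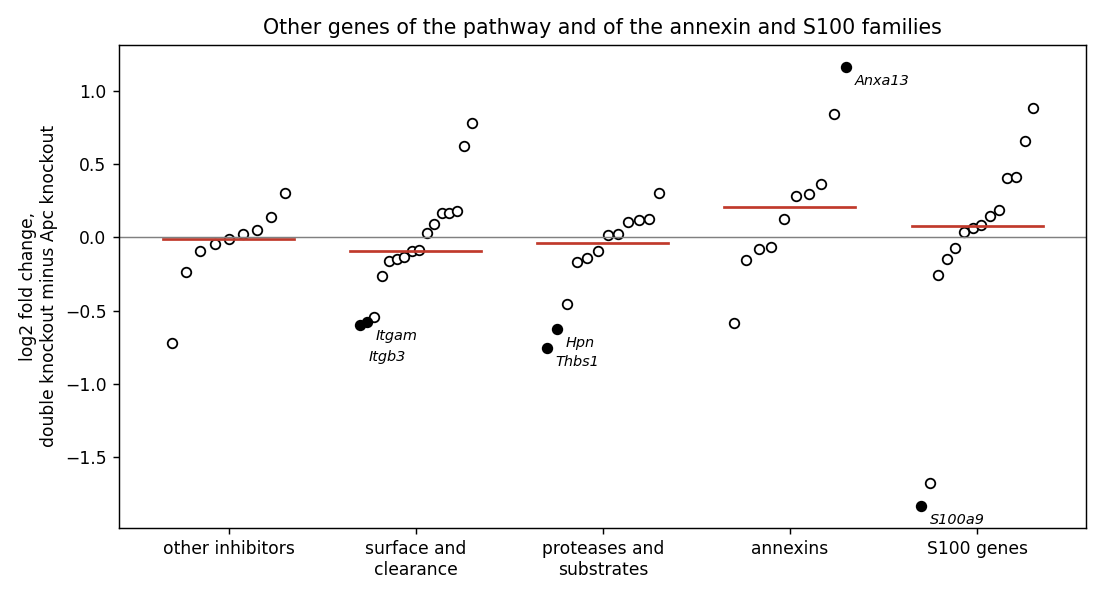
Log2 fold change, DKO minus Apc KO (vertical axis), of each tested gene in 5 lists (horizontal axis), with filled points for an unadjusted limma p under 0.05 and red lines at each list's median. Named points are the 4 lower pathway genes (Thbs1 at −0.76, Hpn, Itgb3 and Itgam) and Anxa13 (1.17) and S100a9 (−1.84) of the families of Anxa2 and S100a10.

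The families of Anxa2 and S100a10 were set beside them. Of 10 other annexins tested, 4 had lower and 6 higher means, with a median log2 fold change of 0.21. This rested on DKO tumor 2: without it 7 had lower and 3 had higher means (median −0.06). At an unadjusted p under 0.05, 0 were lower and 1 was higher, beside 3.82% and 1.78% of all tested sets. The higher one was Anxa13, an annexin of intestinal epithelium (1.17, SE 0.31, limma adjusted p = 0.821). It is also on the study's list of genes that differed. Anxa1, Anxa4 and Anxa5 differed by 0.29, −0.06 and −0.08. Of 14 other S100 genes tested, 5 had lower and 9 higher means, with a median of 0.08, while without DKO tumor 2 the lower ones were 9 and the higher ones 5 (median −0.02). Of these 14, 1 was lower at an unadjusted p under 0.05 (S100a9) and 0 were higher, beside the same 3.82% and 1.78%. S100a9, a neutrophil product, had the lowest value (−1.84, SE 0.69), followed by its partner S100a8 (−1.68, SE 0.78). Without DKO tumor 1 they were at −1.18 and −0.93. S100a6 and S100a11 differed by −0.26 and −0.15. Anxa13 and S100a9 were thus the members of these families with the largest differences in each direction, and Anxa2 and S100a10 were among those that differed by less than 0.15 in size.

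The profiles most like that of Plat were sought among 18350 other single-symbol tested sets, by the root mean square difference of log2 values after each gene was centred on its mean over the 6 tumors. The 4 nearest were Ttc39c (0.17), Pcdhb20 (0.17), Cadm1, a cell adhesion molecule (0.18), and Nnat, or neuronatin (0.19), beside a median of 0.79 over all candidates. Their log2 fold changes were between −1.55 and −1.03. Nnat, like Plat, is on the study's own list of genes that differed between these tumors. For Plaur the 4 nearest were Zswim7, Ephx4, Rap1gap and Gk5, each at 0.15, beside a median of 0.46. Like Plaur, each of these 4 was highest in Apc KO tumor 2. These profiles share the tumors and the contrast between groups, so their likeness is a description of 6 arrays.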

How the data were processed

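RNA of 3 DKO and 3 Apc KO colon tumors, dissected by laser, was hybridized to Affymetrix Mouse Gene 1.0 ST arrays, 1 per tumor. According to the methods and the submitters' notes, the authors applied RMA (background correction, quantile normalization across arrays, summary of the probes of each set) in GeneSpring GX and deposited log2 signals. No other column of tumor values was used.

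Symbols came from GEO's platform annotation: 21789 sets have 1 symbol, 1621 several and 12146 none. For each gene the set with the highest mean would be taken, and each measured member had 1. Differences were tested with limma 3.58.1 in R 4.3.3 (lmFit, eBayes, no covariates, two-sided, Benjamini-Hochberg over the 19506 sets that carry a symbol and reach the 20th percentile in mean signal). The methods' cut-off of 20% names no measure, and this filter on level was used in its place. The fit was tested on simulated data. Confidence intervals of 95% are from limma, and the number of arrays limits the precision.

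Members and gene lists were chosen with earlier results of these data known. Text names all members, pathway genes with an unadjusted p under 0.05, the 3 largest differences per pathway list, annexins and S100 genes under 0.05, and the 4 profiles nearest to Plat and to the member with the next largest difference. Other genes (St14, Ctsb, Fga, Fgb, Fgg, Itgav, Itgb2, Lrp1, Vldlr, Ahnak, Spint1, Spint2, Anxa1, Anxa4, Anxa5, S100a6, S100a8, S100a11 and cell type markers given as exceptions) were named after their values were seen. Cpb2, Eno1, Fpr1, Fpr2 and Klkb1 had no set of their own.

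Alternatives were the methods' test, other filters, median centring, quantile normalization, a trend with robust eBayes, the replicate number as a block, and each tumor left out.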

Additional observations from a re-analysis of the deposited data

How the results depend on the processing

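Plat, Plau, Plg, Plaur and Serpinf2 had lower means in DKO tumors under all 13 alternatives, and in none of them did a member or any tested set pass an adjusted p of 0.05. With 1 tumor left out, Plat had log2 fold changes of −1.59 to −0.95. The number of members lower at an unadjusted p under 0.05 was 1, and it was 2 with the methods' test, further quantile normalization or a trend with robust eBayes, where Plg joined Plat, and 2 without a filter or with the replicate block, where Plaur did. It was 1 to 2 with 1 tumor left out. Serpinb2 ran from −0.019 to 0.28, Anxa2 from −0.24 to 0.067 and S100a10 from −0.040 to 0.235 when 1 tumor was left out, so their direction was not settled. Same-numbered tumors did not deviate together (correlations of −0.20, −0.06 and 0.09), and with the replicate block Plat had a log2 fold change of −1.30 (SE 0.25, limma adjusted p = 0.604). Tested sets lower at least 2-fold with an unadjusted p under 0.05 numbered 121, with 46 in the methods' test, 186 with the replicate block and 54 to 297 with 1 tumor left out. Those lower at an unadjusted p under 0.05 numbered 745 (439 without Apc KO tumor 1, 481 without Apc KO tumor 3) and those higher 347 (710 without DKO tumor 3). The cause was not tested. The mean of several sets of a gene gave no value, since each member had 1 set.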
